A study of Mus musculus with 2 samples.

Results

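Gene desert peaks are stretches of open chromatin that lie far from any gene. They were selected by position alone, as the broad ATAC-seq peaks whose midpoint fell outside every annotated gene of the mouse assembly mm9 and more than 100 kb from every start site of a protein-coding gene. In control enteroids 8722 of 90445 peaks met the rule, which is 9.64% of the list with a 95% interval of 9.45% to 9.84%. In Taf4-inactivated enteroids 6094 of 71282 peaks did so, or 8.55% with an interval of 8.34% to 8.76%. Intervals of shares are exact Clopper-Pearson intervals and express the error of counting peaks, not the variation between cultures.

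The cultures were enteroids, budding epithelial cultures grown in a gel from the ileal crypts of 4-month-old mice of strain C57Bl6/129sv. Mice of both genotypes carried floxed Taf4 alleles (Taf4 lox/lox), the gene for a component of TFIID, which nucleates transcription complexes at promoters. Enteroids of the group labelled KO also carried VilCreERT2, a tamoxifen-inducible Cre recombinase driven by the villin promoter and therefore active in epithelial cells, whereas those of the group labelled WT, called control here, had no Cre. Both received 1 µM 4-hydroxytamoxifen (4-OHT) for 3 days. Each genotype was represented by 1 library, so that genotype and library cannot be told apart and no test between genotypes was possible. All 8 epithelial marker genes checked, among them Vil1, Cdx2 and Hnf4a, had a peak at their start site in both lists, whereas 6 of 11 marker genes of other cell types did so in control and 5 of 11 after inactivation.

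Gene deserts are long stretches without protein-coding genes, and in mammals many of them flank genes for developmental regulators. Open sites inside them are often enhancers, which are bound by transcription factors and can act on a promoter over large distances through looping of the DNA. Other open sites in deserts sit in repeats, since much of this sequence derives from transposable elements present in many copies. In the intestinal epithelium distal enhancers are typically occupied by HNF4, CDX, GATA and forkhead factors, and AP-1 binds enhancers opened by growth and stress signals.

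The sequences of a few peaks show how different the members were. Each stretch is read 5′ to 3′ on the plus strand of mm9, as the central 300 bp of the peak or as the whole of a narrower one, and capitals mark a match to a transcription factor recognition sequence. The first was the member of highest fold enrichment in both lists, at chr3:5860455-5860754, between the peroxisome assembly gene Pxmp3 and 1700008P02Rik. The second, at chr3:77376926-77377225 between Fstl5 and Gm5277, was a shared peak on repeated DNA.
Pxmp3 to 1700008P02Rik: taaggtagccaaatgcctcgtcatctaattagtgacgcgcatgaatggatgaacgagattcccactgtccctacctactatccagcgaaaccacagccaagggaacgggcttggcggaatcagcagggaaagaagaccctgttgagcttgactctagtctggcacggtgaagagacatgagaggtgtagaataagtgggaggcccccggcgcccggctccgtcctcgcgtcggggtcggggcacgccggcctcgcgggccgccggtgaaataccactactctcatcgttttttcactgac
Fstl5 to Gm5277: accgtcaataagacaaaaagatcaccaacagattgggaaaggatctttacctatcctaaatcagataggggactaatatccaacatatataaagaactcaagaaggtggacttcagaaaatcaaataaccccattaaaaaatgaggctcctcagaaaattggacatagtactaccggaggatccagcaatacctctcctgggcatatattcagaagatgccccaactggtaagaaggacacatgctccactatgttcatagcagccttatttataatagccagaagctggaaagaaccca
The Pxmp3 stretch held 23 CpG dinucleotides and the Fstl5 stretch 2. A base word of 16 letters in the second occurred 21181 times in the genome at the median, compared to 8 times in the first. Only copies in the assembled genome were counted, so a low count, such as that of the Pxmp3 stretch, does not show that a sequence is rare.

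The next 3 were the peaks of highest fold that were found after Taf4 inactivation and had no counterpart in control. They lay at chr8:49950860-49951159 between Odz3 and 4930555F03Rik, at chr4:55731422-55731721 between Klf4 and Actl7b, and at chr14:47159507-47159806 between Bmp4 and Cdkn3.
Odz3 to 4930555F03Rik: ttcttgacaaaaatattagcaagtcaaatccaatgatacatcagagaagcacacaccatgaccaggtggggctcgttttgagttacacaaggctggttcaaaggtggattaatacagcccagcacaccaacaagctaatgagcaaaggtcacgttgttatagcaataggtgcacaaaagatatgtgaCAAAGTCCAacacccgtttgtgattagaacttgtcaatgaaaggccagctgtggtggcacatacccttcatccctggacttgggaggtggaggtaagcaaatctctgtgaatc
Klf4 to Actl7b: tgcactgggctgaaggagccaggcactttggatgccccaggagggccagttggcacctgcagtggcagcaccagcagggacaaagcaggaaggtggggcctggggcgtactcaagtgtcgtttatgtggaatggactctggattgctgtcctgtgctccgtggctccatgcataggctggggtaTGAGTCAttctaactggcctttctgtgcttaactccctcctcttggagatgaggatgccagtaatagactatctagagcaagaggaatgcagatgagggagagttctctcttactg
Bmp4 to Cdkn3: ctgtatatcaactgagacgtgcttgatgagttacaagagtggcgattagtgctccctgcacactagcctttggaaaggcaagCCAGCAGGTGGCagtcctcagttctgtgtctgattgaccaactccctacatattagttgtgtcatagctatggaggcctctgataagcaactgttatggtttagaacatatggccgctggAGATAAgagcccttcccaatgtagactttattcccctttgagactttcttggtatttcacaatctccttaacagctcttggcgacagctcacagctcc
The capitals mark an HNF4 sequence in the Odz3 stretch, an AP-1 sequence in the Klf4 stretch, and a CTCF and a GATA sequence in the Bmp4 stretch. The 2 control peaks of highest fold without a counterpart, at chr8:45747075-45747346 between Adam34 and Fat1 and at chr6:51794111-51794387 between Snx10 and Skap2, held none of the sequences searched and thus show no capitals.
Adam34 to Fat1: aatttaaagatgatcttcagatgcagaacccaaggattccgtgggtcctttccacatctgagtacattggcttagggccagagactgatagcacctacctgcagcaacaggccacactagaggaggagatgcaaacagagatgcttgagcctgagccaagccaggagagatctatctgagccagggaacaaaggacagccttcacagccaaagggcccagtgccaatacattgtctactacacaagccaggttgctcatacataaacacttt
Snx10 to Skap2: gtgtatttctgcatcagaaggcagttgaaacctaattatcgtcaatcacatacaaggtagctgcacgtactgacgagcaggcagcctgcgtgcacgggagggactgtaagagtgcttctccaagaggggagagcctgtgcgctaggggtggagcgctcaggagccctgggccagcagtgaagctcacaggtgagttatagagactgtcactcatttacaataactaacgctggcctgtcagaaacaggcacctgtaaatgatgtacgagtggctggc

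Deserts were thinly populated with peaks. They made up 748 Mb of the 2559 Mb of assembled sequence, or 29.2%, and held 11.7 control and 8.15 Taf4-inactivated peaks per Mb. The rest of the genome held 45.1 and 36.0 peaks per Mb, which is 3.87 and 4.42 times more. Sequence outside genes but 10 to 100 kb from a coding start was also denser than the deserts, with 36.0 and 28.1 peaks per Mb. The median distance to the nearest coding start was 189 kb in control and 187 kb after inactivation. Start sites of non-coding genes accounted for few members, as 163 control peaks (1.87%) and 102 Taf4-inactivated peaks (1.67%) were within 1 kb of one.

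The first comparison asked how many desert peaks the genotypes had in common, where an overlap of 1 bp between the lists made a peak shared. Most desert peaks of control enteroids were not found after Taf4 inactivation: 6039 of 8722, or 69.2% (68.3% to 70.2%), had no partner, above the 52.7% of all control peaks. Among Taf4-inactivated desert peaks 3401 of 6094, or 55.8% (54.6% to 57.1%), had no partner, compared to 39.8% of all peaks of that list. Sharing was therefore rarer in deserts than in the lists as a whole in both directions, and the intervals of the members did not reach the values of the lists. The number of members with a partner was nearly the same in both lists, 2683 in control and 2693 after inactivation, so that the difference of 13.4 percentage points between the genotypes followed from the lengths of the lists. Peaks inside genes differed by as much and all peaks by nearly as much. Peaks outside genes at 10 to 100 kb lay between, with 57.8% and 45.7% without a partner, as did peaks inside genes more than 10 kb from a coding start, with 63.7% and 50.3%. At coding starts themselves only 17.0% of control and 9.51% of Taf4-inactivated peaks lacked a partner.

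A difference in estimated background level accompanied these shares. The local background was solved from the deposited fold and p of the narrowest 10% of peaks, and its 5th percentile was taken. This level was 12.1 reads in the control and 7.36 reads in the Taf4-inactivated library, a ratio of 1.65. It is not a read total, and its part in the sharing was not tested. Peaks that did have a partner met another desert peak in nearly every case, for 99.9% of control and 99.7% of Taf4-inactivated members. The overlap covered at least 50% of both peaks in 58.5% (56.6% to 60.4%) and 58.3% (56.4% to 60.1%) of the shared members.

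The strength of a peak is given here by its fold enrichment over the background of its own library, as a decile of the whole list. Strong peaks were the most often shared in both lists. In control the share of desert peaks without a partner was 63.7% to 82.1% in the lower 8 deciles, 43.9% in the ninth and 9.54% in the highest. After inactivation it was 53.7% to 68.1% in the lower 7 deciles, 42.7% in the eighth, 30.4% in the ninth and 14.3% in the highest. Giving each decile equal weight, desert peaks still lacked a partner more often than all peaks, with 65.9% against 52.7% in control and 51.5% against 39.8% after inactivation.

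**Figure D1:**
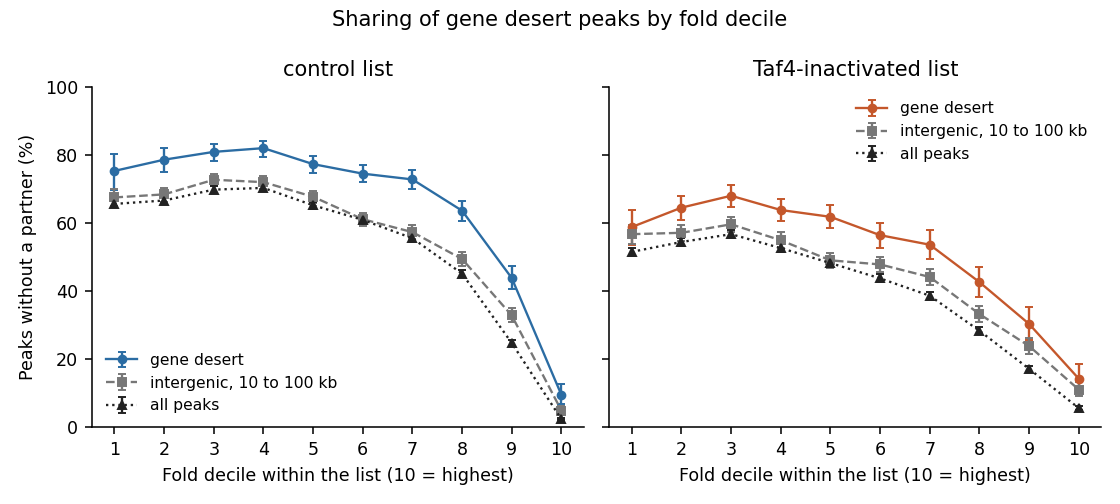
Share of peaks without a partner in the other list (%), against the decile of fold enrichment within the list (10 is the highest), for control (left) and Taf4-inactivated (right) peaks. Coloured circles are gene desert peaks, grey squares are intergenic peaks 10 to 100 kb from a coding start, black triangles are all peaks, and bars are exact 95% binomial intervals. The desert line is above the other lines in each decile and falls to 9.54% in control and 14.3% after inactivation.

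The second comparison was of width. Desert peaks were narrower than peaks in general, with a median of 445 bp in control (quartiles 281 and 763 bp) and 412 bp after inactivation (271 and 709 bp), compared to 584 and 530 bp for the whole lists. Only 13.6% of control and 10.1% of Taf4-inactivated desert peaks reached 1 kb, against 23.5% and 19.5% of all peaks. Shared members were wider than members without a partner, with medians of 591 and 392 bp in control and of 506 and 342 bp after inactivation. Among the 2680 pairs of desert peaks that overlapped each other best, the control peak was the wider in 55.3%, compared to 55.6% of all pairs.

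Width and sharing went together. In control 83.3% (81.8% to 84.7%) of desert peaks narrower than 300 bp had no partner, and 23.9% (16.2% to 33.0%) of those of 2 kb or more. After inactivation these values were 74.2% (72.2% to 76.2%) and 14.3% (4.81% to 30.3%), the latter from 35 peaks. In every width class desert peaks lacked a partner more often than peaks elsewhere. For example, at 1 to 2 kb, 45.5% of control desert peaks and 26.6% of other control peaks were without one. The corresponding shares after inactivation were 31.1% and 11.8%.

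Peaks also became narrower and less often shared with distance from genes. In control the median width fell from 522 bp at 10 to 50 kb from a coding start to 376 bp at 500 kb to 1 Mb and 360 bp beyond 1 Mb, and after inactivation from 469 to 368 and 330 bp. The share without a partner rose from 55.9% at 10 to 50 kb to 73.4% (69.8% to 76.8%) at 500 kb to 1 Mb in control, and from 44.3% to 61.5% (56.8% to 66.0%) after inactivation. Beyond 1 Mb it was 64.5% (56.7% to 71.7%) of 166 control peaks and 50.8% (41.6% to 60.1%) of 120 Taf4-inactivated peaks, with intervals that overlap those of the preceding class. Nothing changed abruptly at 100 kb, where the rule placed the border: 63.7% of control peaks at 80 to 100 kb and 67.4% at 100 to 120 kb had no partner, as did 50.6% and 53.9% of Taf4-inactivated peaks.

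**Figure D2:**
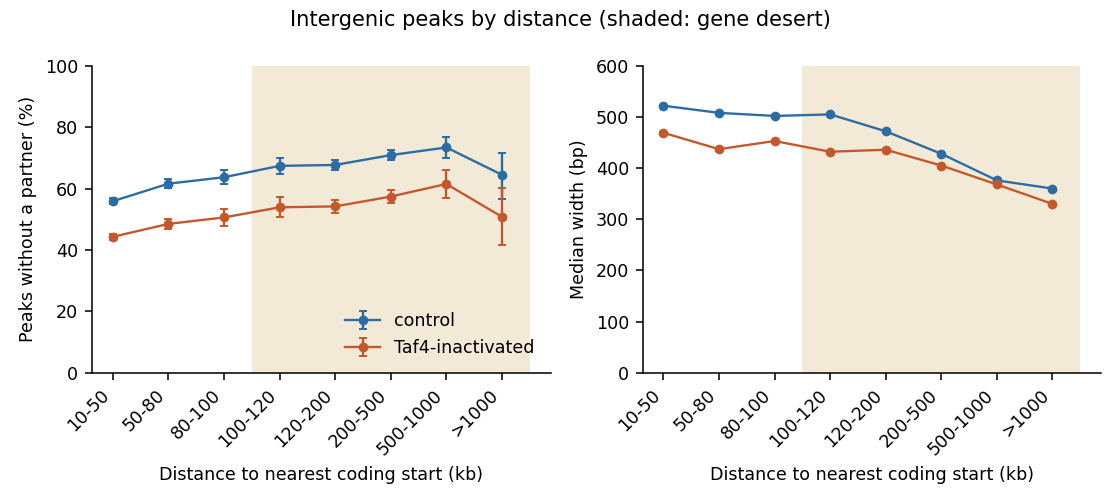
Share of intergenic peaks without a partner (%, left, with exact 95% binomial intervals) and median peak width (bp, right) against distance to the nearest protein-coding start (kb), with control in blue and Taf4-inactivated in orange. The shaded classes beyond 100 kb are the gene desert peaks, whose width declines to 360 bp in control and 330 bp after inactivation.

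The most isolated members illustrate these extremes. The control peak farthest from a coding start, at chr1:104308772-104309540 between the neuronal adhesion gene Cntnap5b and the cadherin gene Cdh20, was 2356 kb from Cdh20, had a fold of 1.98 and no partner. The same desert held a shared peak at chr1:103901772-103902226, 2233 kb from Cntnap5b, with a fold of 4.63 in control and 6.28 after inactivation, and a Taf4-inactivated peak without partner at chr1:104457868-104458199 with a fold of 3.80. The shared peak was on repeated sequence, with a median word count of 10645. The remaining far members lay between Celf4 and Pik3c3 on chromosome 18, 2186 kb from a coding start in control and 2235 kb after inactivation. Neither of them had a partner.

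The broadest members were not the strongest. In control the widest spanned 4204 bp at chr16:3232777-3236980 near the olfactory receptor gene Olfr161, with a fold of 1.66, followed by 3584 bp at chr8:11954674-11958257 near 1700018L24Rik. A peak of 3566 bp between Gm20516 and Pgk2, at chr17:39979976-39983541, was matched by a peak of 3565 bp after inactivation and had a fold of 1.91 in control and 1.89 after inactivation. Its centre was 69.3% G and C, and it ended 1506 bp before AY036118, a locus at which the RefSeq table lists a ribosomal RNA pseudogene. The widest Taf4-inactivated member, 3758 bp at chr17:75301105-75304862, lay between Ttc27 and Ltbp1, which encodes a protein that binds latent TGF-beta. A peak of 3136 bp at chr2:28160280-28163415, next to the neuronal gene Olfm1, had no partner in control.

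Strong members, defined as those in the top 10% of their list by fold, were few. They numbered 409 in control, or 4.69% (4.26% to 5.15%) of the members, and 315 after inactivation, or 5.17% (4.63% to 5.75%). Of these, 39 control peaks (9.54%, 6.87% to 12.8%) had no partner, compared to 2.38% of all strong control peaks. After inactivation 45 (14.3%, 10.6% to 18.6%) had none, compared to 5.65% of all strong peaks.

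Many strong desert peaks were on repeated DNA. A peak was called high-copy when the words of 16 bases in its central 300 bp occurred at least 100 times in the genome at the median. This held for 1.75% of all control and 1.70% of all Taf4-inactivated peaks. Among strong desert peaks, 122 of 409 in control (29.8%, 25.4% to 34.5%) and 75 of 315 after inactivation (23.8%, 19.2% to 28.9%) were high-copy, whereas 2.41% and 1.56% of strong peaks elsewhere were. The share rose with strength, from none of the 372 Taf4-inactivated members in the lowest decile, which allows up to 0.987%, to 4.80% in the sixth and 13.0% in the ninth. High-copy members lacked a partner less often than members in general, in 177 of 413 cases in control (42.9%) and 110 of 337 after inactivation (32.6%). Among strong members, 1 of the 45 Taf4-inactivated peaks without a partner was high-copy, against 74 of the 270 that had a partner.

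The strong high-copy members resembled each other over part of their length. The median alignment spanned 139 bases in both lists, of peaks with median widths of 401 bp in control and 428 bp after inactivation. Of the 122 strong high-copy members in control, 106 aligned with each other in a single group, with a median identity of 95.3% and members on 20 chromosomes, and after inactivation 72 of 75 did so with a median identity of 96.4%. Of the strong members below that copy number, the largest group held 5 of 287 in control and 4 of 240 after inactivation. The Fstl5 sequence printed above came from a high-copy peak, with a fold of 5.41 in control and 7.30 after inactivation. Reads were mapped only where they had a unique position, and how this bears on peaks in repeats was not tested. Without high-copy peaks, 70.6% of control and 57.2% of Taf4-inactivated desert peaks lacked a partner, a difference of 13.4 points as before.

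**Figure D3:**
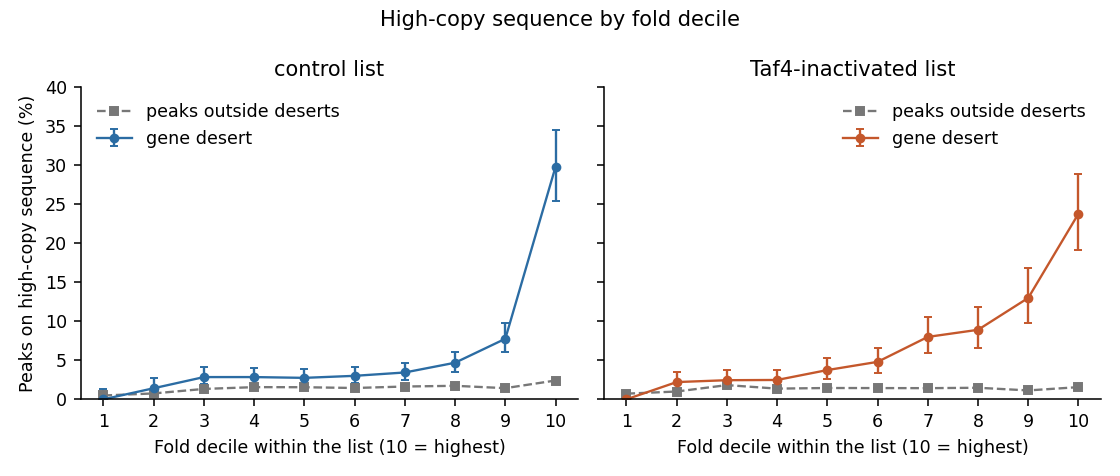
Share of peaks on high-copy sequence (%) against the decile of fold enrichment within the list, for control (left) and Taf4-inactivated (right) peaks. Coloured circles are gene desert peaks with exact 95% binomial intervals, and grey squares are peaks outside deserts. The desert line climbs to 29.8% in control and 23.8% after inactivation in the highest decile, whereas the grey line ends at 2.41% and 1.56%.

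The shared members of highest fold were the same in both lists for the first 3. The Pxmp3 peak reached a fold of 10.4 in control and 13.3 after inactivation. A peak at chr12:3109808-3110185, the first desert of that chromosome, reached 7.64 and 11.3, and a peak at chr6:3151257-3151723, before Samd9l, 6.11 and 10.2. A stretch of 421 bases of the chromosome 6 peak was 96.7% identical to chr17:39984113-39984532, between the wide peak described above and AY036118. The next in control were the Fstl5 peak and a peak at chr13:3372152-3372956 before Gdi2, with folds of 5.28 and 6.06. After inactivation they were a peak between Mc2r and 4930546C10Rik, with 8.29 against 5.19 in control, and a high-copy peak at chr1:114953593-114954075 between Dsel and Cntnap5a, with 7.74 against 4.66. Folds are relative to each library's own background and are not on a common scale.

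Among peaks below high copy, a strong shared member lay 161 kb from Phlpp1 on the side of Bcl2, which encodes an inhibitor of apoptosis. The Taf4-inactivated peak at chr1:108374175-108374953 had a fold of 6.23, and the control peak, which was wider (1368 against 779 bp), had a fold of 4.16. This peak was chosen after its values were seen, to show a strong member with an AP-1 sequence, in capitals near the 3′ end of chr1:108374414-108374713.
Phlpp1 to Bcl2: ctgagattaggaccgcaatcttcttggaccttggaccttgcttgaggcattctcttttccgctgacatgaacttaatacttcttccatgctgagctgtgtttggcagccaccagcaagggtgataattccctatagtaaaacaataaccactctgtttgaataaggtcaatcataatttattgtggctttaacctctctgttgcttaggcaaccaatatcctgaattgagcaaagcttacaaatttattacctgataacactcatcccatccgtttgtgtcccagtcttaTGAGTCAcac

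Strong peaks without a partner had lower folds in control than after inactivation. So did strong members as a whole, with median folds of 2.83 and 4.18, and folds are not on a common scale. The 5 highest without a partner in control had folds of 2.74 to 3.13, at percentiles 93.0 to 97.1 of the list. They were 272 to 299 bp wide. Of these, 4 lay between Adam34 and the atypical cadherin gene Fat1 (288 kb from Fat1), between Snx10 and Skap2, between Gm9931 and the phospholipase gene Pla2g4a, and between Nrg3 and Sh2d4b. The 5 highest after inactivation had folds of 4.63 to 5.29, at percentiles 97.8 to 99.4, and were 333 to 448 bp wide. The Odz3 peak, 191 kb from the start of this teneurin gene, reached 5.29. The Klf4 peak, 186 kb from the start of Klf4, which encodes a factor required for goblet cell differentiation, reached 5.10. The Bmp4 peak was 149 kb from Bmp4, a ligand that opposes stem cell renewal in the crypt, and reached 4.78. The others lay between Plod2 and 1190002N15Rik (4.68) and between the cystine transporter gene Slc7a11 and Ccrn4l (4.63).

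The order of the genotypes turned when only confident peaks were counted. With a −log10 q of at least 5 required of the member, and a partner of any q accepted, 13 of 364 control members (3.57%, 1.92% to 6.03%) and 189 of 821 Taf4-inactivated members (23.0%, 20.2% to 26.1%) had no partner. The background of these shares among all peaks of that confidence was 1.04% in control and 11.6% after inactivation, so that the members lay above it in both lists, and in the same order. With the threshold applied to both lists the values were 19.2% of 364 and 64.3% of 821, again with almost equal numbers that had a partner (294 and 293) in lists of unequal length. At a −log10 q of at least 2 in both lists the values were 65.6% and 59.3%, in the order of the full lists. With a threshold on both lists the shares over all peaks are not given here, so these values have no background beside them. The whole lists were also of unequal length at 5, with 10757 control and 20474 Taf4-inactivated peaks. Few members were of high confidence: 41.0% of control and 50.1% of Taf4-inactivated desert peaks reached a −log10 q of 2, and 4.17% and 13.5% reached 5. Of all peaks 49.2% and 64.0% reached 2, and 11.9% and 28.7% reached 5, so that the whole lists differed in the same direction.

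The 189 confident peaks found only after Taf4 inactivation were spread over 142 deserts, of which 34 held at least 2. Of these 189 peaks, 3 were high-copy (1.59%), compared to 122 of 632 confident members that had a partner (19.3%), and their median G and C content was 45.3%. The desert between Maf, a bZIP transcription factor, and Dynlrb2 held 5, with folds up to 3.66. The deserts between C030005K15Rik and the calcium pump gene Atp2b1, and between Cd83 and Jarid2, a component of Polycomb repressive complexes, held 4 each. Among the deserts with 3 were those between Klf6 and Pitrm1, Klf7 and Creb1, Zeb2 and Acvr2a, and Tgfbr2 and Rbms3. The 13 confident peaks found only in control were in 13 deserts. These deserts were picked for their counts and are given as a description.

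The rank of a shared peak within its list was compared over the 2680 desert pairs. Percentiles of fold in the lists had a Spearman correlation of 0.623 over these pairs, and of 0.732 over the 39811 other pairs, the points of each set coming from the same libraries. The median percentile of the desert pairs was 67.8 in control and 51.7 after inactivation, whereas that of the other pairs was 68.4 and 62.6. A rank at least 50 points higher in control was seen in 147 desert pairs (5.49%), compared to 3.20% of all pairs. A rank at least 50 points higher after inactivation was seen in 20 (0.746%), compared to 2.22% of all pairs. The percentiles come from lists of unequal length, 90445 and 71282 peaks, and the part of this in the rank differences was not tested.

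The chromosomes differed little except for 19 and X. The ratio of control to Taf4-inactivated desert peaks was 1.26 to 1.55 on chromosomes 1 to 18. On chromosome 19 there were 254 control and 107 Taf4-inactivated members, a ratio of 2.37, and 80.7% of the control members had no partner. On chromosome X there were 390 and 218, a ratio of 1.79. Outside deserts the highest ratios were also those of chromosomes 19 (1.40) and X (1.37), against 1.14 to 1.31 on the others. These chromosomes were singled out after their values were seen, and the sex and chromosome numbers of the cultures are not given in the sources used here. On the autosomes alone the shares without a partner were 69.2% and 56.1%.

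The deserts were then ranked by density. A desert was the eligible sequence between 2 neighbouring coding genes, and peaks of both lists that overlapped were counted once. There were 1890 deserts with 12120 such peaks, and 1494 of them held at least 1. Among the 459 deserts with at least 500 kb of eligible sequence, the median density was 6.83 peaks per Mb, with quartiles of 3.79 and 12.7, and 10 held none. Density followed base composition, with a Spearman correlation of 0.740 to the G and C content over these 459 deserts, which share the same libraries. In the 115 deserts of lowest G and C content (35.8% to 37.4%) the median was 3.65 peaks per Mb, and in the 114 of highest content (39.7% to 48.9%) 21.5.

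The densest desert, between Matn1, which encodes a cartilage matrix protein, and Ptpru, which encodes a receptor tyrosine phosphatase, held 82 peaks in 0.584 Mb of chr4:130600301-131202962, or 140 per Mb. It had 59 control and 44 Taf4-inactivated members, of which 21 were shared. The second, between the cadherin gene Cdh26 and 4930591A17Rik (chr2:178265313-179049640), held 102 peaks at 130 per Mb, and the third, between the ribosomal protein gene Rps24 and the coactivator gene Zmiz1 (chr14:25409941-26175286), held 84 at 122 per Mb. Next came the deserts between Fam19a5 and Brd1, a subunit of histone acetyltransferase complexes (120 per Mb), and between the nuclear kinase gene Vrk1 and 3110018I06Rik (114 per Mb), which had the most peaks of any desert, 130. The desert between the ciliary gene Nphp4 and the adherens junction gene Ajap1 reached 112 per Mb.

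The desert between Med13l, a subunit of the Mediator kinase module, and the T-box repressor gene Tbx3 held 107 peaks per Mb. That between Gm4906 and the Polycomb-associated corepressor gene Bcor on chromosome X held 96.1, that between 4931429L15Rik and the adhesion gene Cadm1 held 90.1, and that between Tssc1 and the neuronal zinc finger gene Myt1l held 89.2. By number of peaks the first 5 were the deserts of Vrk1, Cdh26, Fam19a5, Cadm1 and Med13l, with 130, 102, 101, 91 and 86 peaks, and all 5 were among the 10 densest. The order depended on the size required of a desert. With at least 200 kb of eligible sequence, only the Matn1 and Cdh26 deserts stayed in the first 10, and the first was the desert between 1700018L24Rik and A230072I06Rik, with 148 per Mb.

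**Figure D4:**
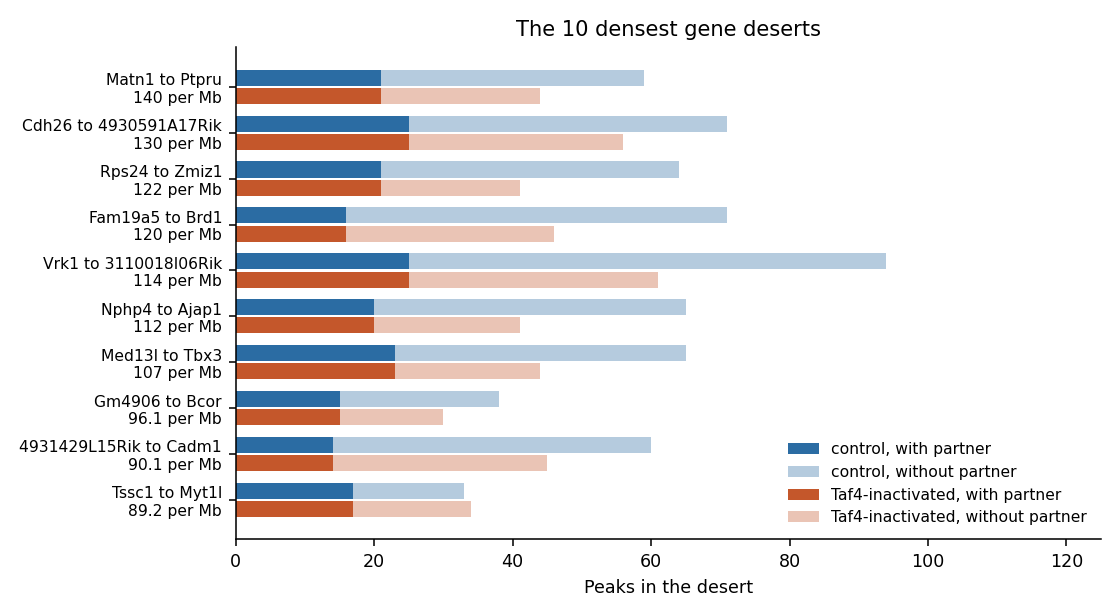
Number of gene desert peaks in the 10 densest deserts, named by their flanking genes with the density in non-redundant peaks per Mb. Blue bars are control and orange bars Taf4-inactivated peaks, with the dark part having a partner in the other list and the pale part none. Control peaks are more numerous in each desert but the last, where there are 33 control and 34 Taf4-inactivated peaks.

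The densest deserts were made of weak peaks. The median percentile of fold over the peaks of each was 20.7 to 39.1, below the medians of all members, which were 52.4 in control and 43.0 after inactivation, and each held 0 to 3 strong peaks. Their G and C content of 45.3% to 48.9% was above the median of 38.2% over the 459 deserts. Sharing in them was like that of the members in general: 68.2% of their 620 control peaks and 55.4% of their 442 Taf4-inactivated peaks had no partner. Over the 459 deserts, 302 held more control peaks, 78 more Taf4-inactivated peaks and 79 equal numbers.

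Some deserts had more unshared peaks than their size and the shares of the members would give. In control the excess was 7.07 peaks between Sall3 and Galr1 (41 of 49 without a partner), 5.84 between Fam19a5 and Brd1 (55 of 71), and 5.77 between the insulin gene Ins1 and Xpnpep1 (21 of 22). The last of these is on chromosome 19 and held 5 Taf4-inactivated peaks. It was 5.69 between Ajap1 and A430005L14Rik (23 of 25) and 4.77 between Prox1, a homeobox gene, and Rps6kc1 (29 of 35). After inactivation the deserts of Sall3 and Galr1 (25 of 33), Cadm1 (31 of 45), Ajap1 and A430005L14Rik (12 of 13), Fam19a5 and Brd1 (30 of 46), and Plekhb2 and Hs6st1 (21 of 30) had the largest excess, of 4.26 to 6.58 peaks. Of these deserts 3 were in both sets. A desert has nearly the same number of shared peaks in both lists, such as 8 and 8 between Sall3 and Galr1. Few shared peaks thus raise the excess in both lists by construction. The deserts were picked for their excess and are given as a description.

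The deserts were also grouped by the kind of gene beside them, from gene lists chosen with earlier results of these data known. Of 63 annotated intestinal regulators, 29 flanked a desert, and these 39 deserts held 19.5 control and 16.5 Taf4-inactivated peaks per Mb, above the 11.7 and 8.15 of all deserts. The 101 deserts beside developmental transcription factors held 21.0 and 15.6 per Mb. The 91 deserts beside neuronal adhesion and synaptic genes, some of which are among the longest of the genome, held 3.59 and 2.41 per Mb. Beside intestinal regulators 60.6% of control and 53.1% of Taf4-inactivated peaks had no partner, compared to 73.2% and 60.1% beside neuronal genes and 68.3% and 57.5% beside developmental factors. In the intestinal, neuronal and developmental groups 11, 67 and 32 deserts had at least 500 kb of eligible sequence. Their median density was 11.4, 4.69 and 18.8 peaks per Mb, against 6.83 over all deserts of that size. Their median G and C content was 39.4%, 37.3% and 40.8%. The part of length and of G and C content in these densities was not tested. The groups overlap, as the Klf4 to Actl7b desert is in the intestinal and in the developmental group.

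Of the 39 deserts beside intestinal regulators, 16 held more control peaks, 15 more Taf4-inactivated peaks, 3 equal numbers and 5 none, with 363 and 307 peaks in all. Those named here were chosen after their counts were seen. The desert between Klf5, a factor of proliferating crypt cells, and Klf12 held 12 control and 18 Taf4-inactivated peaks, that between A1bg and the proto-oncogene Myc 12 and 17, and that between Klf6 and Pitrm1 2 and 7. The deserts between Maf and Dynlrb2 (20 and 22), Pax1 and the forkhead gene Foxa2 (12 and 15), and Klf4 and Actl7b (22 and 23) differed by few peaks. More control peaks were held by the other deserts of Maf (Wwox to Maf, 14 and 8) and Foxa2 (Foxa2 to Sstr4, 6 and 1), and by those between Prox1 and Rps6kc1 (35 and 18), Tead1 and Arntl (21 and 10), Tcf7l2 and Habp2 (14 and 8) and Id2 and Rnf144a (30 and 19). Peaks in some deserts beside intestinal regulators were stronger than those of the densest deserts. In the A1bg to Myc desert the median percentile was 81.9 in control and 77.2 after inactivation, and in the Klf5 to Klf12 desert 77.5 and 74.2. In the Prox1 to Rps6kc1 desert it was 34.8 and 18.0.

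The desert beyond Klf4 shows how peaks of the genotypes lay relative to each other. It spanned chr4:55649774-56654296 and held 34 non-redundant peaks, 11 of them shared. Unshared peaks were 11 of 22 in control and 12 of 23 after inactivation. A stretch was singled out after its peaks were seen: between 169 and 237 kb from the start of Klf4 there were 9 Taf4-inactivated peaks, of which 6 had no partner. The strongest of these 6, at 186 kb, is the AP-1-containing peak printed above, and the others, at 169, 195, 230, 236 and 237 kb, had folds of 2.75 to 3.17. Control peaks without a partner in the same stretch were at 189, 190 and 206 kb, with folds of 1.94, 1.93 and 2.28. Folds of the lists are not on a common scale. By percentile of their own list these control peaks were at 31.0, 28.2 and 78.8. The unshared Taf4-inactivated peaks other than the strongest were at 67.7 to 80.7. The shared peak at 176 kb had a fold of 2.62 in control and 3.63 after inactivation, at percentiles 91.0 and 89.2. It was 735 and 1360 bp wide.

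**Figure D5:**
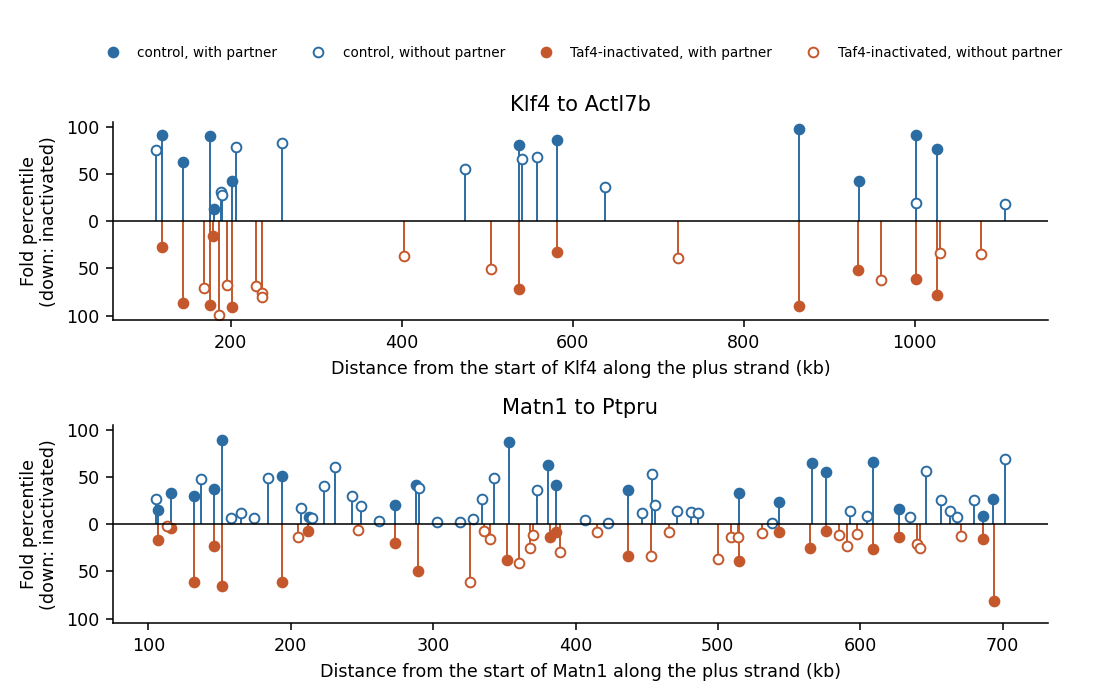
Fold percentile of each peak, drawn upwards for control and downwards for Taf4-inactivated, against distance from the start of the left flanking gene (kb) for the deserts from Klf4 to Actl7b and from Matn1 to Ptpru. Filled circles have a partner in the other list and open circles have none. The Klf4 desert shows a group of Taf4-inactivated peaks near 200 kb that includes the peak at percentile 99.1, and in the Matn1 desert most peaks are below percentile 50.

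Recognition sequences were counted on both strands in the central 300 bp of the peaks. They were TGACTCA for AP-1, AGATAA for GATA factors, CAAAGTCCA for HNF4, GCAATAAA or GCCATAAA for CDX factors, TGTTTAC for forkhead factors, and the CTCF sequence. AP-1 was found in 6.66% of control and 9.63% of Taf4-inactivated desert peaks, compared to 6.93% and 9.38% of all peaks and 4.72% and 4.85% of stretches 2 kb beside the members. HNF4 was found in 0.711% and 1.41%, close to the 0.745% and 1.46% of all peaks, and in 0.390% and 0.411% of the adjacent stretches. CTCF, which is bound at loop anchors, was found in 0.550% and 1.12% of the members and was less frequent than in all peaks, at 0.975% and 2.15%. It was more frequent in the members than in the adjacent stretches, which held it in 0.132% and 0.181%. GATA was found in 12.0% and 15.3% of the members, more than the 10.3% and 12.8% of all peaks but less than the 17.8% and 17.9% of the adjacent stretches. CDX was found in 1.75% and 2.40% of the members, 1.53% and 2.05% of all peaks and 2.23% and 2.13% of the adjacent stretches. Forkhead was found in 3.30% and 4.23% of the members, 3.19% and 3.79% of all peaks and 4.33% and 4.42% of the adjacent stretches. In control the intervals of the members and of the adjacent stretches did not overlap for forkhead (2.94% to 3.70% and 4.03% to 4.64%), the members being lower. The median G and C content of the members was 51.7% and 50.3%, and that of the deserts of at least 500 kb was 38.2%. The content of the adjacent stretches is not given here. The part of base composition in these shares was not tested.

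AP-1 was frequent in the confident peaks found only after inactivation. It was present in 55 of 189 (29.1%, 22.7% to 36.1%), compared to 87 of 632 confident members with a partner (13.8%, 11.2% to 16.7%). Below high copy the shares were 55 of 186 (29.6%, 23.1% to 36.7%) and 87 of 510 (17.1%, 13.9% to 20.6%), and the intervals did not overlap. Among strong members of the same list below high copy it was present in 13 of 44 without a partner (29.5%, 16.8% to 45.2%) and 40 of 196 with a partner (20.4%, 15.0% to 26.7%), with overlapping intervals. Confident peaks found only after inactivation outside deserts held AP-1 in 450 of 2176 (20.7%), below the interval of the members. This outside set was not limited by distance from a coding start. Strong Taf4-inactivated peaks outside deserts and over 1 kb from a coding start, with or without a partner, held AP-1 in 22.7% (21.1% to 24.3%). HNF4 was present in 11 of the 189 peaks (5.82%, 2.94% to 10.2%) and in 17 of the 632 (2.69%, 1.57% to 4.27%), with overlapping intervals. None of the 13 confident control peaks without a partner held AP-1, which allows a share of up to 24.7%, and 37 of the 244 below high copy that had a partner did (15.2%, 10.9% to 20.3%). High-copy members were nearly devoid of the sequence, at 0.484% in control and 0.297% after inactivation. A match gives the letters present in the window and not the binding of a factor.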

How the data were processed

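Accessible chromatin had been mapped by ATAC-seq in ileal enteroids, with 1 library for control and 1 for Taf4 inactivation, and the peak list of each was used. According to the study's methods and the submitters' processing notes, base calls were converted with bcl2fastq 2.17.1.14, reads were aligned to mm9 with Bowtie 1.0.0 keeping unique positions, and broad peaks were called per library with MACS2 2.1.1, with no fragment model and a read extension of 200 bp. How duplicate and mitochondrial reads were handled is not given in the sources used here.

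For each peak the authors deposited a whole-number score (10 times the −log10 q), a fold enrichment (a ratio over local background), and −log10 p and −log10 q values. Read totals were not used here, and a background level was estimated from fold and p in place of depth. Positions were made 1-based and set against the NCBIM37 genome with GENCODE vM1 (22380 coding genes among 37310). Words of 16 bases were counted over both strands of the genome, and strong peaks were aligned to each other with blastn 2.17.0 (e-value at most 1e-20). RefSeq gave names and neighbours of genes only (table for GRCm38.p6, no coordinates used).

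Members and lists were chosen with earlier results of these data known. Named deserts and peaks were the 10 densest deserts, the 5 with most peaks, the 5 per list with the largest excess without a partner (their number minus that given by the share over all members), and per list the 5 members of highest fold with and without a partner, the 3 widest and the 3 farthest from a coding start. The location of 1 named peak is not reported here. Groups followed the genotype label. With 1 library per genotype no p-value was computed, and exact binomial 95% intervals cover counting error only. Membership, partners, words, recognition sequences and the background estimate were tested on simulated data. Alternatives changed the q threshold, overlap, distance, gene set, chromosomes, ranking value and window. Leaving out high-copy peaks, using the 40000 peaks of highest −log10 p per list, and requiring −log10 q of 5 of the member only were added after seeing the data. Python 3.11.15, numpy 2.4.6, pandas 2.3.3, scipy 1.17.1, pysam 0.24.0, numba 0.67.0 and matplotlib 3.10.9 were used.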

Additional observations from a re-analysis of the deposited data

How the results depend on the processing

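Of 87 recomputed values, 26 stayed within the counting error of the reported one (within 1.5 times for counts), 59 moved beyond it and 2 reversed. The reversals were the difference between control and Taf4-inactivated desert peaks without a partner, which became -45.1 points at −log10 q of at least 5 in both lists (19.2% and 64.3%) and -19.4 points when only the member had to reach 5 (3.57% and 23.0%). At −log10 q of at least 2 the shares were 65.6% and 59.3% and the difference 6.29. With an overlap of 50% of both peaks they were 82.0% and 74.3%, a difference of 7.76, and with a gap of up to 500 bp allowed 67.5% and 53.2%. Beyond 50 kb they were 66.3% and 53.0%, and beyond 200 kb 71.1% and 57.8%. Without high-copy peaks they were 70.6% and 57.2%. Among the 40000 peaks of highest −log10 p per list the control share was 66.2% and the difference 9.74. Other gene sets and autosomes alone left the shares within error.

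Median widths were 395 and 379 bp at −log10 q of at least 2, 471 and 469 bp at 5, 411 and 392 bp beyond 200 kb, and 458 bp in control without high-copy peaks. Deserts held 8.04% and 6.69% of the lists at −log10 q of 2, 3.38% and 4.01% at 5, 16.4% and 14.9% beyond 50 kb, 4.50% and 3.92% beyond 200 kb, and 10.2% and 9.02% outside coding genes only. Of strong control members 0.562% (top 5% by fold), 1.74% (top 10% by −log10 p), 20.8% (overlap of 50%) and 13.2% (without high-copy peaks) had no partner, and of Taf4-inactivated ones 8.81% by −log10 p and 27.0% at an overlap of 50%. Pairs 50 points apart at that overlap were 13 higher after inactivation and 75 higher in control. Of the 10 densest deserts, 2 remained with at least 200 kb and 2 with at least 1 Mb of eligible sequence.

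In windows of 200 bp the recognition sequences were less frequent by construction, in control and Taf4-inactivated members 4.65% and 7.07% for AP-1, 8.27% and 10.9% for GATA, 0.527% and 1.08% for HNF4, 1.25% and 1.74% for CDX, 2.27% and 3.04% for forkhead, and 0.378% and 0.673% for CTCF. Where not given by construction, the cause of a change was not tested. No paired analysis was possible because each genotype had 1 library and no test was run. The lower background level estimated after inactivation, which is not a read total, limits what an absent partner shows.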

Other observations

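Base composition separated the unshared desert peaks of the lists. Among members with at least 55% G and C in the central 300 bp, 1428 of 2201 control peaks (64.9%, 62.8% to 66.9%) and 405 of 1190 Taf4-inactivated peaks (34.0%, 31.3% to 36.8%) had no partner. Between 40% and 45% the shares were 61.8% (58.2% to 65.3%) of 743 and 63.9% (60.4% to 67.2%) of 805, with overlapping intervals. Between 35% and 40% the control share was 41.2% (240 peaks) and the Taf4-inactivated share 54.7% (322 peaks), in the reverse order and with intervals that did not overlap. Peaks outside deserts with at least 55% G and C lacked a partner in 38.8% of control and 16.9% of Taf4-inactivated cases. Outside deserts the shares were 53.1% and 57.8% between 40% and 45%, and 49.4% and 59.8% between 35% and 40%. The reverse order was thus not particular to the members. Members also lay near each other, as 45.6% of control and 37.3% of Taf4-inactivated members had another member of their list within 10 kb. Of members with such a neighbour 67.3% and 53.6% had no partner, and of the isolated ones 70.9% and 57.1%.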
